A study of Mus musculus with 6 samples.

Results

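The genes described here carry pyruvate into mitochondria and oxidise it in the citrate cycle, including the succinate dehydrogenase step shared with the respiratory chain (complex II). They are 34 listed genes whose mean normalised count was at least 10 over all libraries, and all 34 met that minimum among the 22027 genes of the table. RNA-seq was carried out on gastrocnemius (GAS) muscle of 3 WT and 3 mKD mice, which were female, fed regular chow and aged 14 weeks, with 1 library per mouse. In mKD mice, *Tet3* fl/fl alleles were combined with HSA-Cre79, a transgene that expresses Cre recombinase from the human α skeletal actin promoter. WT mice were TET3 floxed littermates, so both genotypes carried the floxed allele. Cre is driven in muscle fibres, and the other cell types of the tissue keep *Tet3*. In whole muscle, fewer cells of a type and less RNA per cell cannot be told apart. The labels also give a time of 48 h for every sample, which the methods do not mention for this experiment.

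Pyruvate enters mitochondria through a carrier made of MPC1 and MPC2, and the pyruvate dehydrogenase complex then turns it into acetyl-CoA. Pyruvate dehydrogenase kinases switch that complex off by phosphorylation and phosphatases switch it back on, which in muscle sets how much glucose carbon is oxidised rather than fatty acid. Citrate synthase joins acetyl-CoA to oxaloacetate, and the cycle returns to oxaloacetate through 2 dehydrogenases that release carbon dioxide, the succinate-CoA ligases, complex II, fumarase and malate dehydrogenase.

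TET3 oxidises 5-methylcytosine, which in mammals lies mainly at CpG positions, so the promoters of the members that passed the 1.2-fold rule below are shown with their CpG positions in capitals. Promoter windows, the 250 bases before each annotated start in RefSeq on GRCm38.p6, were matched for 31 of 34 members (41 windows). *Idh3a*, *Sdhc* and *Pdp1* were not matched. A member window held a median of 18 CpG (lowest 2, highest 35), and the median over all 32851 windows was 6. Those windows were taken without regard to expression, and no median over expressed genes was made, so the gap is not shown to be particular to the members. *Pdk1* has 2 annotated starts, with 19 CpG before the first (chr2:71872974-71873223, plus strand) and 2 before the second (chr2:71874654-71874903, plus strand). The window of *Mpc2* (chr1:165461010-165461259, plus strand) held 19 CpG, and *Pcx* has 2 annotated starts in this table, with 16 before the first (chr19:4510222-4510471, plus strand) and 4 before the second (chr19:4594069-4594318, plus strand). Methylation was not measured in these libraries, so the sequences describe the promoters only.
Pdk1, first start: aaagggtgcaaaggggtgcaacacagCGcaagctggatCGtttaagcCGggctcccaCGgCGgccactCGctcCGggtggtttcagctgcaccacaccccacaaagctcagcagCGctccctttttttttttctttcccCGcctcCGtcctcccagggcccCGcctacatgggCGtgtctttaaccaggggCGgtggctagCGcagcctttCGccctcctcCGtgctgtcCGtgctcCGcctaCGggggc
Pdk1, second start: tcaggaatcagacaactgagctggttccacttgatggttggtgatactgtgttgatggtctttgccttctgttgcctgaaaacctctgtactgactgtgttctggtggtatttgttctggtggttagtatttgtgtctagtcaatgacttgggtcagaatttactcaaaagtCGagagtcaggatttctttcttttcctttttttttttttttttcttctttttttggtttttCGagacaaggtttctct
Mpc2: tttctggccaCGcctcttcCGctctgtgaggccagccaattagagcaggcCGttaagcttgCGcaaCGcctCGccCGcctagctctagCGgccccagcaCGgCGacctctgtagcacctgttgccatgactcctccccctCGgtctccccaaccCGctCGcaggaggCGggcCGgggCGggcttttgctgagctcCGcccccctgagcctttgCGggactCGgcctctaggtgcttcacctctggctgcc
Pcx, first start: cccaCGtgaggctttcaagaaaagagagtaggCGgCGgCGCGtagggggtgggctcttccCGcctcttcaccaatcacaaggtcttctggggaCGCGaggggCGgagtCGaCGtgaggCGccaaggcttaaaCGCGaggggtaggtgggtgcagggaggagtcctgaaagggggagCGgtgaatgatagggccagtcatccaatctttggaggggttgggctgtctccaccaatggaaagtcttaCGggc
Pcx, second start: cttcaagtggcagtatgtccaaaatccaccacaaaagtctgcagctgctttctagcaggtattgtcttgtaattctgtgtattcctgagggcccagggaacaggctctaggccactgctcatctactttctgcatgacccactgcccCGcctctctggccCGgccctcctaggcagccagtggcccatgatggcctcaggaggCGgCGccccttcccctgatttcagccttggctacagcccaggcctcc

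The libraries held 16219227 to 26705724 reads in WT and 28050939 to 32148270 in mKD. *Tet3* had normalised counts of 594, 536 and 708 in WT and 425, 318 and 472 in mKD, with each mKD library below each WT library. Its log2 fold change, mKD minus WT, was -0.60 (SE 0.18, limma adjusted p = 0.18). It was -0.22 once the trend of each library's deviation from the gene mean over longest-transcript length had been taken out. With length taken as the median transcript, a setting added after the data were seen, it was -0.35. Here a normalised count is the deposited value, a read count divided by 1 factor per library, and each test is a row of 1 limma fit of log2(value + 1) over 12322 genes. Where a gene is said to have passed, its difference was at least 1.2-fold with an unadjusted p under 0.05. The study's results name this fold and p without stating an adjustment, and its methods name a false discovery rate, so the p-values printed here are the adjusted ones. By that rule 2196 genes (17.8%) passed, 1024 higher (8.31%) and 1172 lower (9.51%) in mKD. At an adjusted p under 0.05 limma called 2 genes (0.0162%), neither of them a member.

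Of the 34 members, 2 were higher in mKD (*Mpc2* and *Pcx*) and 1 was lower (*Pdk1*), which is 8.82% of members beside 17.8% of all genes tested. The remaining 31 did not pass. At an adjusted p under 0.05 limma, edgeR and DESeq2 called 0 members, and the adjusted p in limma ran from 0.159 to 0.980, with 3 members at an unadjusted p under 0.05 (DESeq2 gave no adjusted p for *Pdk3*). The log2 fold change was positive in 22 members and negative in 12. Positive values made up 64.7% of members and 51.1% of all genes tested. The median over the members was 0.10, beside 0.01 over all genes tested. In 24 members the 95% interval of the log2 fold change lay within 1.5-fold in either direction.

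That median moved with single libraries and with transcript length. It was 0.0051 without WT library 2, 0.17 without WT library 3 and 0.04 without mKD library 2. The count of members that passed was 1 without WT library 1, where 12.6% of all genes passed, and 5 without mKD library 3, where 15.3% did. Longest transcripts of members had a median of 2562 nucleotides, shorter than the 3480 of all genes tested. With the length trend removed from each library, 15 of 34 log2 fold changes were positive and the median was -0.015. When length was taken as the median transcript of each gene, added after the data were seen, the median was 0.07.

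In 4 members (11.8%) the 3 mKD values did not overlap the 3 WT values, beside 24.8% of all genes tested. mKD lay above WT for *Pdhb*, *Suclg1* and *Fh1* (12.1% of all genes did so), and below WT for *Pdk1* (12.7% of all genes did so). With 3 mice against 3, an exact permutation test cannot give a p below 0.10. The plot of all members by library shows how far the genotypes overlap.

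**Figure D1:**
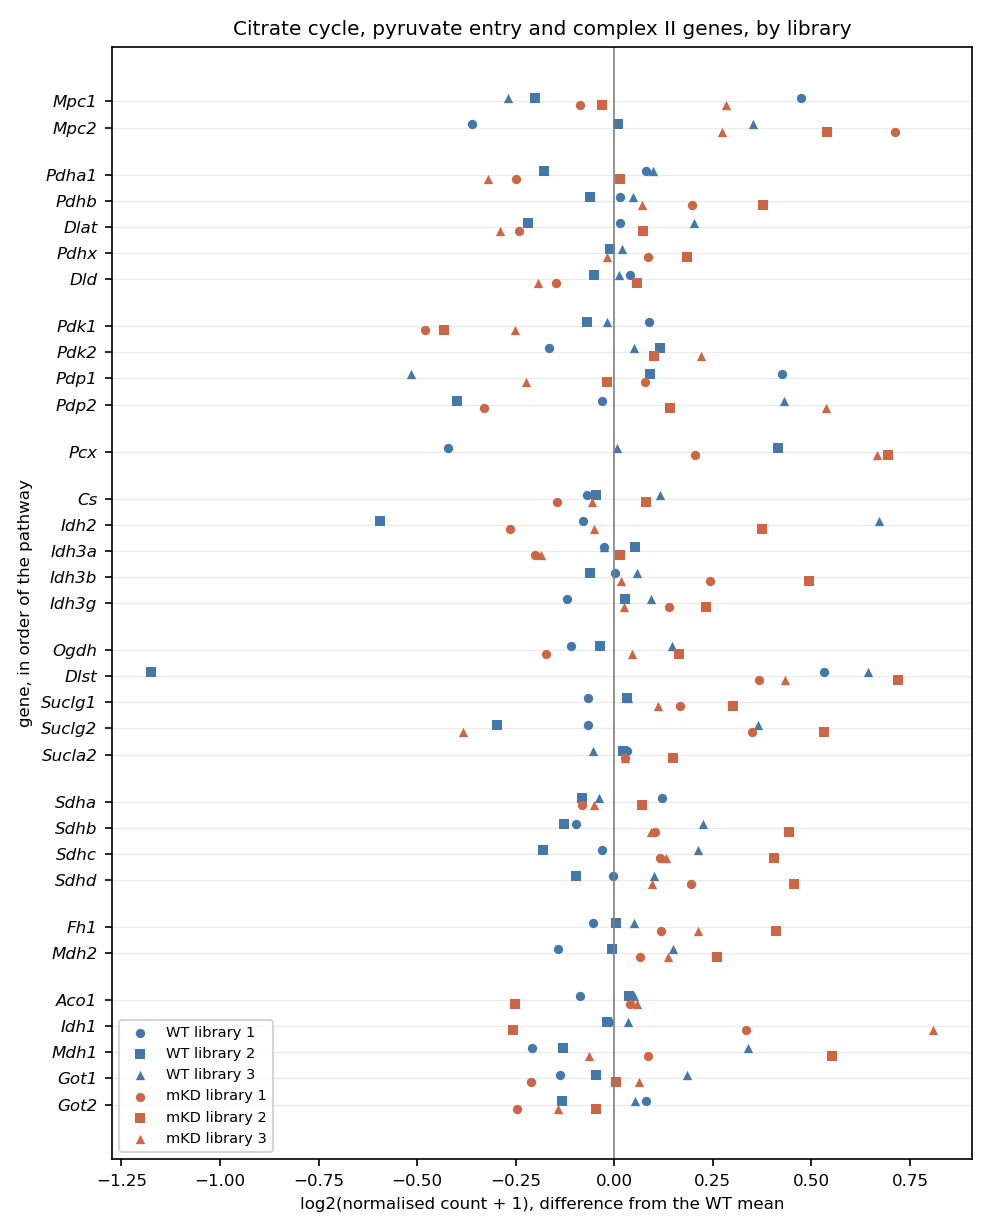
Each row is a member gene in order of the pathway and each point is 1 library, as the difference of log2(normalised count + 1) from the WT mean of that gene; blue is WT, orange is mKD and the marker shape gives the library number. *Pdk3* is left out because its count was 0 in mKD library 2. For 29 of the 33 members plotted the points of the genotypes overlap, and WT library 2 stands far to the left for *Dlst*.

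The mitochondrial pyruvate carrier showed a difference in one of its subunits. *Mpc2* (ENSMUSG00000026568.6, chr1:165460637-165481214) had normalised counts of 2499, 3233 and 4099 in WT and 5259, 4668 and 3882 in mKD. The highest WT library lay above the lowest mKD library, and the other libraries were separated. The means were 3277 ± 801 in WT and 4603 ± 691 in mKD (SD, n = 3 mice each). *Mpc2* was 1.42-fold higher in mKD, giving a log2 fold change of 0.51 (95% interval 0.06 to 0.96, limma adjusted p = 0.24). This difference no longer passed without WT library 1 (log2 fold change 0.33, adjusted p = 0.48), WT library 2 (0.51, adjusted p = 0.36), mKD library 1 (0.41, adjusted p = 0.47) or mKD library 2 (0.49, adjusted p = 0.34). *Mpc1* (chr17:8282904-8297661), the obligate partner of MPC2, had counts of 3475, 2177 and 2075 in WT and 2356, 2449.6 and 3046 in mKD. Here WT library 1 was the highest of all 6 and the other WT libraries the lowest pair, so the mKD values lay inside the WT range. For *Mpc1* the log2 fold change was 0.05 (95% interval -0.43 to 0.54, limma adjusted p = 0.92).

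No gene of the pyruvate dehydrogenase complex passed, and the 5 log2 fold changes lay between -0.19 and 0.21 with a median of -0.09. *Pdhb* (chr14:8165996-8173025), which encodes the β subunit of the E1 enzyme, had counts of 5488, 5201 and 5616 in WT and 6229, 7059.7 and 5698 in mKD. Its lowest mKD library was just above its highest WT library. Its log2 fold change was 0.21 (95% interval -0.04 to 0.47, limma adjusted p = 0.35), and without mKD library 3 it passed (0.29, adjusted p = 0.32). The E1 α subunit, *Pdha1* (chrX:160122209-160138413), had a log2 fold change of -0.19 (95% interval -0.50 to 0.13, limma adjusted p = 0.50), with the genotypes overlapping. *Dlat*, the E2 acetyltransferase, stood at -0.15 (limma adjusted p = 0.61) and *Dld*, the E3 dehydrogenase that this complex shares with the 2-oxoglutarate dehydrogenase complex, at -0.09 (limma adjusted p = 0.66). *Pdhx*, which binds E3 to the core, was the most even of the 5, with 1894, 1895 and 1935 in WT and 2023, 2168 and 1883 in mKD, and a log2 fold change of 0.08 (limma adjusted p = 0.69).

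Among the kinases and phosphatases of that complex, *Pdk1* was lower in mKD. *Pdk1* (ENSMUSG00000006494.11, chr2:71873224-71903858), one of the inhibitory kinases, had counts of 3093, 2775 and 2873 in WT and 2085, 2157 and 2443 in mKD. Every mKD library was below every WT library, with a gap between 2443 and 2775. The means were 2914 ± 163 in WT and 2228 ± 189.6 in mKD (SD, n = 3 mice each). The mKD level was 0.764 of the WT level, a log2 fold change of -0.39 (95% interval -0.64 to -0.14, limma adjusted p = 0.16). *Pdk1* had the smallest p of all members and passed with each library left out in turn (log2 fold change -0.46 to -0.34). Its longest transcript has 5185 nucleotides, and with the trend over the longest transcript removed the log2 fold change was -0.25 (adjusted p = 0.44), short of 1.2-fold. When length was instead the median transcript of each gene, which was added with the data in view, it was -0.48 (adjusted p = 0.18).

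The other regulators of the complex did not pass. *Pdk2* (chr11:95026258-95041354), a further inhibitory kinase, had counts of 15727, 19121 and 18278 in WT and 18883, 18912 and 20541 in mKD, which overlap, and a log2 fold change of 0.14 (95% interval -0.13 to 0.41, limma adjusted p = 0.56). Per kilobase of the longest transcript, the mean WT level was 7885 for *Pdk2*, 562 for *Pdk1* and 7.47 for *Pdk3*, so *Pdk2* was the most abundant of these 3 on that scale. *Pdk3* had counts of 12.7, 17.1 and 17.7 in WT and 16.4, 0 and 2.81 in mKD. At these few reads mKD library 1 was within the WT range and mKD library 2 held none. Its log2 fold change of -2.04 had a 95% interval of -4.58 to 0.51 (limma adjusted p = 0.36), depends on the added 1, and passed without mKD library 1 (-3.09, adjusted p = 0.37). *Pdp1*, a phosphatase that reactivates the complex, had a log2 fold change of -0.06 (95% interval -0.58 to 0.47, limma adjusted p = 0.92). *Pdp2*, the second phosphatase, stood at 0.12 (95% interval -0.53 to 0.76, limma adjusted p = 0.86). For both, the spread within a genotype was wider than the difference between genotypes.

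*Pcx* (ENSMUSG00000024892.16, chr19:4510472-4621752), the pyruvate carboxylase that refills the cycle with oxaloacetate, was higher in mKD. Its counts were 2927, 5224 and 3937 in WT and 4519, 6338 and 6217 in mKD. WT library 2 lay above the lowest mKD library, so the genotypes overlapped. The means were 4029.7 ± 1151 in WT and 5691 ± 1017 in mKD (SD, n = 3 mice each), a 1.44-fold difference and a log2 fold change of 0.52 (95% interval 0.00061 to 1.04, limma adjusted p = 0.28). The interval only just leaves out 0, and *Pcx* no longer passed under 10 of 18 alternative settings. Among these were the fits without WT library 1 (0.31, adjusted p = 0.55), WT library 3 (0.52, adjusted p = 0.33), mKD library 2 (0.44, adjusted p = 0.44) and mKD library 3 (0.45, adjusted p = 0.45). *Pcx* is also abundant in adipocytes, and adipocyte markers varied between these libraries. The summed normalised count of 6 of them was 1289, 970 and 13.9 in WT against 5698, 1160 and 4294 in mKD, 2 of the 6 passed as higher, and *Adipoq*, *Cidec*, *Lep*, *Plin1* and *Retn* were at 0 in WT library 3. The mKD library with the highest sum held the lowest *Pcx* count of the mKD libraries. The part of adipocyte RNA in the *Pcx* difference was not tested.

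**Figure D2:**
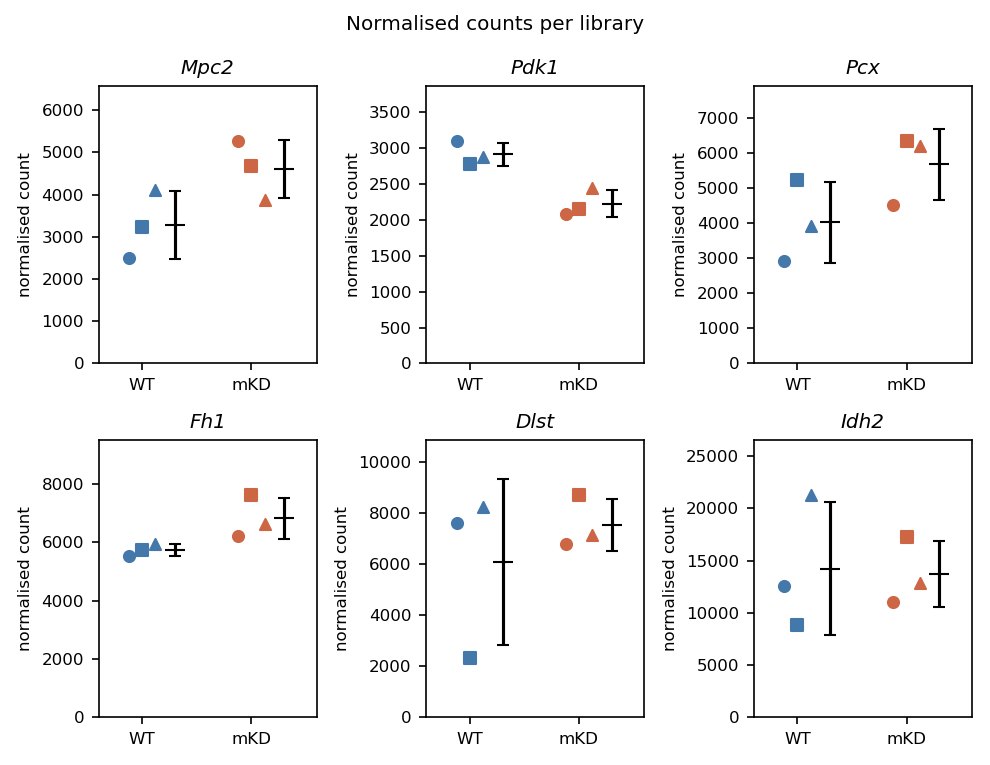
Points are the normalised counts of single libraries for 6 members (circle, square and triangle for libraries 1, 2 and 3 of each genotype; blue WT, orange mKD), and the bar beside them is the mean ± SD of 3 mice on an axis that starts at 0. *Pdk1* and *Fh1* show no overlap between genotypes, *Mpc2* and *Pcx* overlap by 1 WT library, and *Dlst* and *Idh2* show how far single libraries spread.

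From citrate to 2-oxoglutarate no member passed, and the median log2 fold change of the 5 genes was 0.02. *Cs* (chr10:128337734-128362479), citrate synthase, had counts of 25094, 25499.5 and 28517 in WT and 23787, 27827 and 25334 in mKD. The genotypes covered almost the same range, and the log2 fold change was -0.04 (95% interval -0.31 to 0.23, limma adjusted p = 0.88). NAD-dependent isocitrate dehydrogenase is built from the products of *Idh3a*, *Idh3b* and *Idh3g*. *Idh3b* (chr2:130279309-130284547) had counts of 13177, 12609 and 13694 in WT and 15573, 18534 and 13297 in mKD, with mKD library 3 inside the WT range. Its log2 fold change was 0.25 (95% interval -0.07 to 0.57, limma adjusted p = 0.37), and it passed without mKD library 3 (0.37, adjusted p = 0.28). *Idh3a* stood at -0.12 (limma adjusted p = 0.57) and *Idh3g* at 0.13 (limma adjusted p = 0.55), so the 3 subunits did not share a sign. The NADP-dependent *Idh2* (chr7:80094846-80115392) varied most in this group, with 12616, 8831 and 21227 in WT and 11086, 17267 and 12854 in mKD. WT library 3 was the highest and WT library 2 the lowest of all 6, and the log2 fold change was 0.02 (95% interval -0.70 to 0.74, limma adjusted p = 0.98).

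All 5 genes from 2-oxoglutarate to succinate had positive log2 fold changes, with a median of 0.17, and 0 of 5 passed. That median was 0.016 without WT library 2, 0.027 without mKD library 2 and 0.23 without mKD library 3. With the length trend removed it was 0.13, and 4 of the 5 values were positive. *Suclg1* (chr6:73248382-73276911), the α subunit common to both succinate-CoA ligases, had counts of 6502, 6955 and 6968 in WT and 7634, 8380.1 and 7346 in mKD. Each mKD library was above each WT library, and the log2 fold change was 0.19 (95% interval -0.04 to 0.43, limma adjusted p = 0.35). Its β partners define the nucleotide used. *Sucla2*, the ADP-forming partner, had a log2 fold change of 0.07 (95% interval -0.16 to 0.29, limma adjusted p = 0.75). *Suclg2*, the GDP-forming partner, had 1949.8, 1663 and 2632 in WT and 2602, 2952 and 1566 in mKD, with mKD library 3 the lowest of all 6, and a log2 fold change of 0.17 (95% interval -0.44 to 0.77, limma adjusted p = 0.77). Per kilobase of the longest transcript, the mean WT level was 4499 for *Sucla2* and 618 for *Suclg2*. *Ogdh*, the E1 enzyme of the 2-oxoglutarate dehydrogenase complex, stood at 0.01 (95% interval -0.30 to 0.33, limma adjusted p = 0.97).

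The value of *Dlst* (chr12:85110833-85134845), the E2 enzyme of that complex, rested on 1 library. It had counts of 7617, 2334 and 8239 in WT and 6794, 8676 and 7112 in mKD, so WT library 2 stood at less than any other library while the remaining 5 were close together. The log2 fold change was 0.51 (95% interval -0.51 to 1.52, limma adjusted p = 0.57) with all libraries and -0.08 (adjusted p = 0.81) without WT library 2. The highest library held 3.72 times the lowest, the widest ratio among the 33 members with reads in every library, and 22 of these 33 had a ratio under 1.5.

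Complex II consists of the flavoprotein SDHA, the iron-sulphur protein SDHB and the membrane anchors SDHC and SDHD, and 0 of its 4 genes passed. *Sdha* (chr13:74322254-74350280) had counts of 33353, 28967 and 29848 in WT and 28952, 32219.5 and 29612 in mKD. Its genotypes overlapped completely, and the log2 fold change was -0.02 (95% interval -0.29 to 0.25, limma adjusted p = 0.94). *Sdhb* (chr4:140961203-140979193) had 11683, 11430.1 and 14613 in WT and 13432, 16986 and 13340.0 in mKD, and a log2 fold change of 0.21 (95% interval -0.13 to 0.56, limma adjusted p = 0.48). WT library 3 lay within the mKD range and the other WT libraries below it.

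The membrane anchors showed the same arrangement. *Sdhc* (chr1:171127165-171150603) had counts of 7688, 6926 and 9097 in WT and 8514, 10407 and 8595 in mKD, giving a log2 fold change of 0.22 (95% interval -0.11 to 0.54, limma adjusted p = 0.44). *Sdhd* (chr9:50596357-50603812) had 6839, 6401 and 7350.4 in WT and 7838, 9401 and 7316 in mKD, giving a log2 fold change of 0.25 (95% interval -0.04 to 0.54, limma adjusted p = 0.34). For both, WT library 3 was within the mKD range. *Sdhc* passed without WT library 3 (0.32, adjusted p = 0.26) and *Sdhd* without mKD library 3 (0.32, adjusted p = 0.32). The median of the 4 genes was 0.22. With the length trend removed it was -0.03, with -0.05 for *Sdhb*, 0.19 for *Sdhc* and -0.02 for *Sdhd*. With length taken as the median transcript, the median of the 4 genes was 0.14, with 0.14 for *Sdhb*, 0.13 for *Sdhc* and 0.19 for *Sdhd*. The longest transcripts of *Sdhb* and *Sdhd* have 1232 and 1231 nucleotides, and that of *Sdhc* has 3171.

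After complex II, *Fh1* (chr1:175600374-175625635), fumarase, had counts of 5517, 5751 and 5929.8 in WT and 6220.3, 7609 and 6639 in mKD. Each mKD library was above each WT library, with mKD library 2 the highest. The means were 5733 ± 207 in WT and 6823 ± 712 in mKD (SD, n = 3 mice each). In limma the log2 fold change was 0.25 (95% interval -0.01 to 0.50, adjusted p = 0.29), short of the rule in both fold and p. Without mKD library 1 it passed (0.31, adjusted p = 0.41). *Mdh2* (chr5:135778480-135790398), the matrix malate dehydrogenase, had 17377, 19103 and 21288 in WT and 20091, 22976 and 21092 in mKD, which overlap, and a log2 fold change of 0.15 (95% interval -0.13 to 0.43, limma adjusted p = 0.53). Per kilobase of the longest transcript its mean WT level of 11990.1 was the highest of the 34 members, followed by 10594 for *Sdha*, 10207 for *Sdhb* and 8781 for *Cs*. The order rests on which transcript is taken as the length.

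Of the cytosolic isoforms and the malate-aspartate shuttle, 0 of 5 genes passed, and the median log2 fold change was -0.05. *Idh1*, the cytosolic NADP-dependent isocitrate dehydrogenase, had counts of 632, 630.0 and 654 in WT and 805, 534 and 1118 in mKD. The WT libraries were nearly equal while mKD library 3 was the highest and mKD library 2 the lowest of all 6. Its log2 fold change was 0.30 (95% interval -0.27 to 0.86, limma adjusted p = 0.55), and 0.57 without mKD library 2, where it passed (adjusted p = 0.20). *Got2*, the mitochondrial aspartate aminotransferase, had 16330.3, 14097 and 16004 in WT and 13027, 14951 and 13994 in mKD, giving a log2 fold change of -0.14 (95% interval -0.41 to 0.12, limma adjusted p = 0.53). Its genotypes overlapped through WT library 2. The cytosolic partners *Got1* and *Mdh1* stood at -0.05 (limma adjusted p = 0.87) and 0.19 (limma adjusted p = 0.65). *Aco1*, the cytosolic aconitase that also acts as an iron regulatory protein, stood at -0.05 (95% interval -0.36 to 0.26, limma adjusted p = 0.87).

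**Figure D3:**
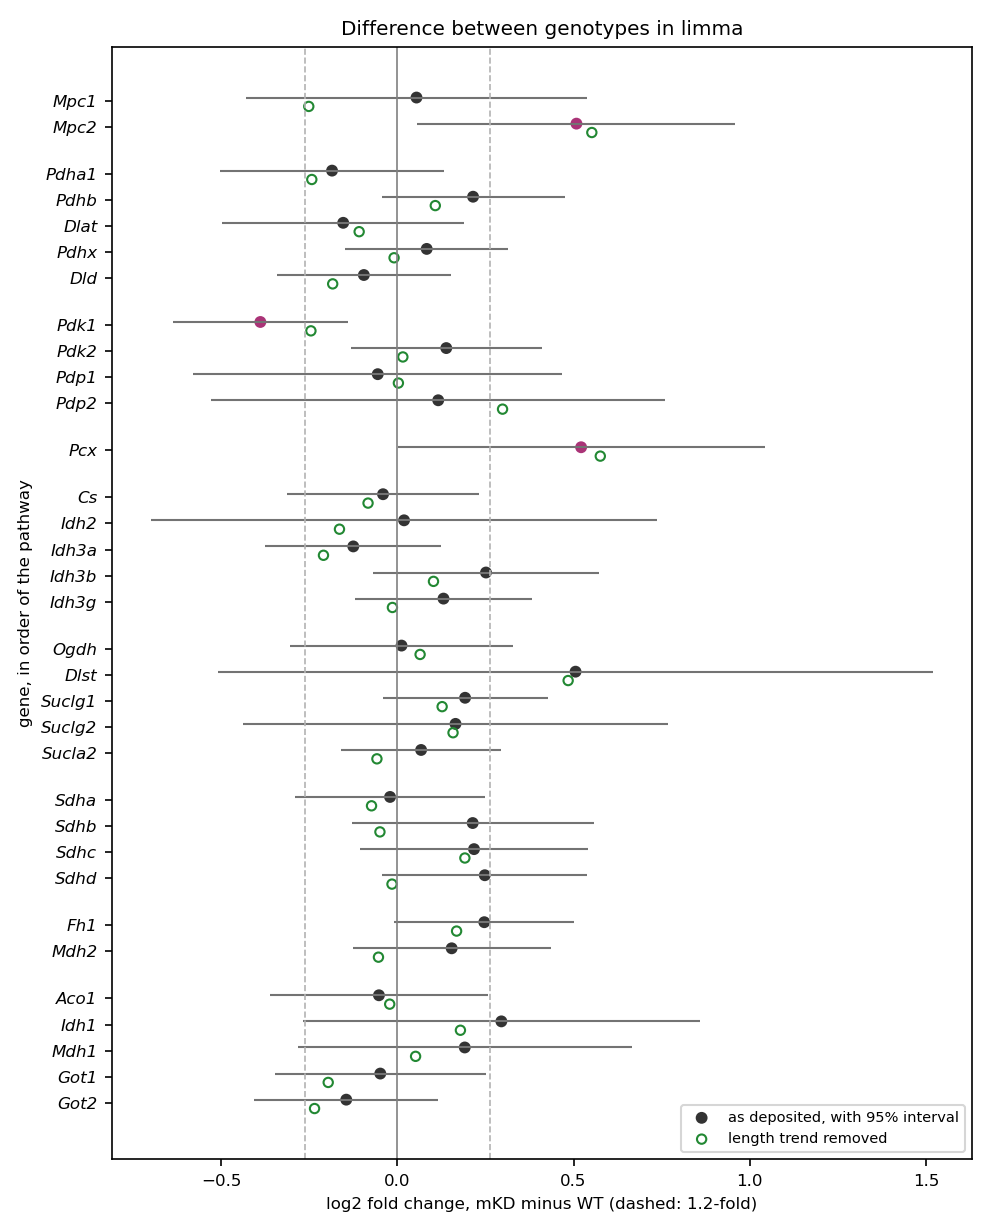
For each member except *Pdk3*, the filled point and line give the limma log2 fold change, mKD minus WT, with its 95% interval (3 mice per genotype), the open green circle gives the same value with the trend over longest-transcript length taken out, and dashed lines mark 1.2-fold. The 3 purple points are *Mpc2*, *Pdk1* and *Pcx*, and the green circles of *Sdhb*, *Sdhd* and *Mdh2* sit slightly left of 0 where the filled points sit right of it.

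Many of the matrix enzymes shared the library that was highest within each genotype. WT library 3 was the highest of WT and mKD library 2 the highest of mKD in 18 of 34 members (52.9%), beside 15.7% of all genes tested. These libraries are the ones in which members were most often highest, so the pattern follows the values it is counted on. The share of all genes is therefore not an independent baseline for it. This pattern held in 4 of 5 genes of the pyruvate dehydrogenase complex, in 4 of 5 from citrate to 2-oxoglutarate and in 4 of 5 from 2-oxoglutarate to succinate. The same was true in 3 of 4 genes of complex II and in both genes from fumarate to oxaloacetate. It held in 1 of 5 genes of the cytosolic and shuttle group (*Mdh1*), and in 0 of 2 carrier genes, 0 of 5 kinases and phosphatases and not in *Pcx*. Taken alone, WT library 3 was the highest of WT in 24 members and mKD library 2 the highest of mKD in 24. The median member differed from its WT mean by -0.03, -0.05 and 0.08 on the log2 scale in WT libraries 1, 2 and 3, and by 0.07, 0.16 and 0.04 in mKD libraries 1, 2 and 3.

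Those same libraries differed in the genes of slow or oxidative fibres. The summed normalised count of 8 such genes was 262582, 80727 and 387658 in WT against 122563, 245698 and 146534 in mKD, a 4.80-fold range in which 0 of the 8 passed. The sum was highest in WT library 3 among WT and in mKD library 2 among mKD, and lowest in WT library 2. WT library 2 was also the lowest of WT in 16 of 34 members (47.1%) and in 30.0% of all genes. These members included *Idh2*, *Dlst*, *Suclg2* and *Sdhc*. However, WT library 1, with a sum of 262582, was the lowest of WT in 15 members, among them *Cs*, *Ogdh*, *Fh1* and *Mdh2*. In 3 members (*Pdk2*, *Pcx* and *Idh3a*) WT library 2 was the highest of WT. Fast and general fibre genes were present in all libraries (8 of 8 markers, summed counts of 3822626 to 4843167), and 1 passed as higher and 1 as lower. *Ttn* had counts of 273378, 222058 and 222992 in WT and 107960, 125863 and 128470 in mKD, each mKD library below each WT library. For *Tnni2* each mKD library was above each WT library, with 150940, 193082 and 152225 in WT and 246251, 221071 and 226318 in mKD. The part of fibre composition in the differences between libraries was not tested.

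**Figure D4:**
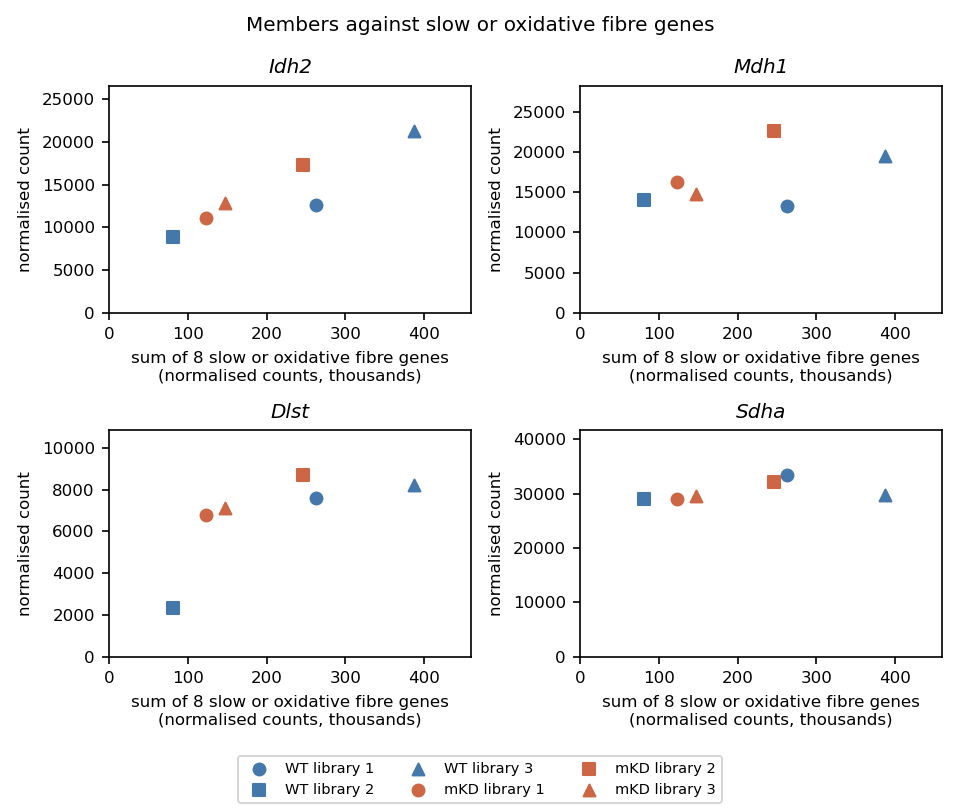
Each panel plots the normalised count of 1 member against the summed normalised count of 8 slow or oxidative fibre genes, with 1 point per library (blue WT, orange mKD) and the vertical axis starting at 0. *Idh2* is lowest in WT library 2, where the sum is 80727, and highest in WT library 3, where it is 387658, while *Sdha* stays between 28952 and 33353.

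Other cell types differed between the libraries as well. The summed count of 10 Schwann cell and nerve markers was 2385 to 2457 in WT and 38789, 1824 and 11964 in mKD, with 2 of 10 higher. Of 8 endothelial markers 7 were lower, with sums of 13535 to 15455 in WT and 7628 to 9845 in mKD. Summed counts of 6 immune markers were 152 to 204 over all libraries, with *Cd3e* at 0 in each, those of 5 blood markers were 2906 to 11831, and 1 of 5 fibroblast markers was lower. Without mKD libraries 1 and 3, where nerve and adipocyte markers were high, *Pdk1* passed (-0.43, adjusted p = 0.50). *Mpc2* (0.54, adjusted p = 0.59) and *Pcx* (0.69, adjusted p = 0.53) kept their sign and did not pass in that fit. It rests on 1 mKD mouse, assumed to vary like the WT mice, and 5 of 34 members (14.7%) passed beside 9.68% of all genes.

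Beyond the members, 28 further genes of the same pathway were read from the same fit, and 7 of them (25.0%) passed, 6 higher and 1 lower, beside 17.8% of all genes tested. In 6 of the 28 (21.4%) the genotypes did not overlap, beside 24.8% of all genes tested, and the median log2 fold change was 0.12. At an adjusted p under 0.05 limma called 0 of the 28 (7 had an unadjusted p under 0.05), edgeR 0 and DESeq2 1, *Sdhaf1*; DESeq2 gave no adjusted p for *Ogdhl* and *Slc25a13*.

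The gene with the smallest p serves complex II assembly. *Sdhaf1* (ENSMUSG00000074211.4, chr7:30321406-30323895) encodes a factor that helps to insert the iron-sulphur clusters of SDHB, and its counts were 239, 275 and 259 in WT and 391, 386 and 388 in mKD. The mKD libraries were nearly equal and all above WT, with means of 258 ± 17.9 and 388 ± 2.49 (SD, n = 3 mice each). The log2 fold change was 0.59 (95% interval 0.30 to 0.89, limma adjusted p = 0.13, DESeq2 adjusted p = 0.022), and it passed under all 18 alternative settings with adjusted p of 0.022 to 0.50. The other assembly factors, *Sdhaf2* (0.08), *Sdhaf3* (0.20) and *Sdhaf4* (0.23), did not pass.

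Lipoate is the cofactor of the E2 enzymes DLAT and DLST, and 2 of 3 genes of its synthesis and attachment passed as higher. *Lias*, lipoic acid synthase (chr5:65391497-65410693), had counts of 958, 934 and 899 in WT and 1137, 1147 and 1132 in mKD. *Lipt2* (chr7:100159277-100161365), which transfers the octanoyl precursor, had 95.04, 88.3 and 90.2 in WT and 149.6, 138 and 141 in mKD. In both genes the genotypes were clearly apart and each genotype was tight. For *Lias* the log2 fold change was 0.29 (95% interval 0.06 to 0.52, limma adjusted p = 0.20). For *Lipt2* it was 0.64 (95% interval 0.25 to 1.04, limma adjusted p = 0.16). *Lias* no longer passed under 6 of 18 alternative settings. Among these were the fits without mKD library 1 (0.29, adjusted p = 0.42) and mKD library 2 (0.29, adjusted p = 0.31). With the length trend removed *Lias* stood at 0.25, and at 0.22 (adjusted p = 0.34) with length taken as the median transcript, both short of 1.2-fold. *Lipt1*, a lipoyl transferase, had a log2 fold change of 0.06 (limma adjusted p = 0.91).

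*Pdpr* (chr8:111094630-111137074), which encodes the regulatory subunit of the pyruvate dehydrogenase phosphatase, was the gene that was lower. It had counts of 4015, 4126 and 4958 in WT and 2484, 3742 and 2486 in mKD. Each mKD library was below each WT library, and mKD library 2 was the closest to WT. Across genotypes the log2 fold change was -0.61 (95% interval -1.03 to -0.19, limma adjusted p = 0.18). It passed with each single library left out, and without mKD libraries 1 and 3 it was -0.22 (adjusted p = 0.73). *Pdk1* and *Pdpr* both had lower counts in mKD, while the catalytic subunit genes *Pdp1* and *Pdp2* did not pass.

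**Figure D5:**
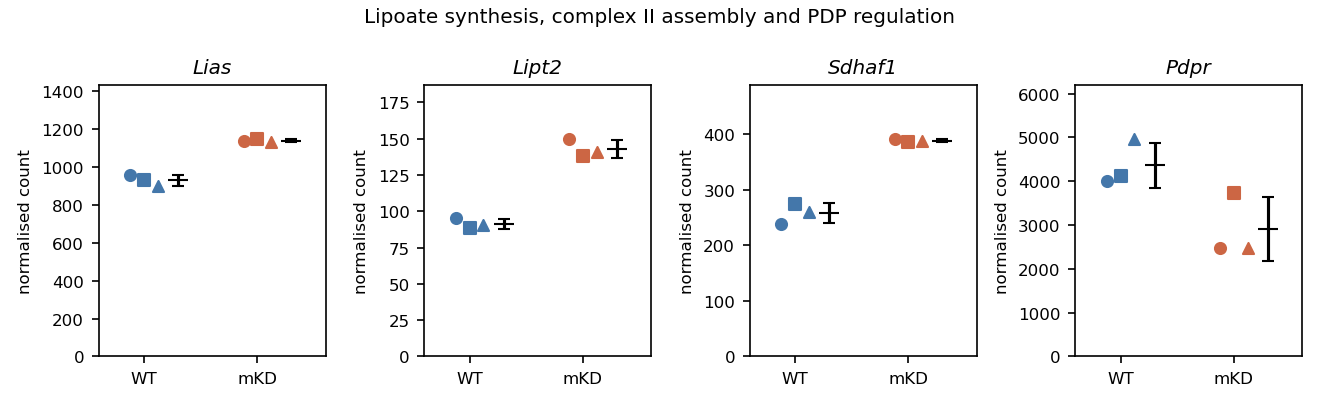
Points are normalised counts of single libraries (circle, square and triangle for libraries 1, 2 and 3; blue WT, orange mKD) with the mean ± SD of 3 mice beside them, on axes that start at 0. All mKD points of *Lias*, *Lipt2* and *Sdhaf1* lie above the WT points, and all mKD points of *Pdpr* lie below.

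The remaining 3 genes that passed were *Fahd1*, *Me3* and *Slc25a1*. *Fahd1*, an oxaloacetate decarboxylase of the matrix, had counts of 665, 637 and 697 in WT and 832, 929.8 and 738 in mKD, giving a log2 fold change of 0.32 (limma adjusted p = 0.25). With the length trend removed it stood at 0.09, and at 0.29 (adjusted p = 0.32), where it passed, if length was taken as the median transcript. *Fahd1* did not pass without WT library 1 (0.31, adjusted p = 0.42), WT library 2 (0.28, adjusted p = 0.41), mKD library 1 (0.31, adjusted p = 0.46) or mKD library 2 (0.23, adjusted p = 0.44). *Me3*, the mitochondrial NADP-dependent malic enzyme, had 1923, 2378 and 2447 in WT and 2703, 2877 and 2613 in mKD, giving a log2 fold change of 0.29 (limma adjusted p = 0.27). It passed, of the fits with 1 library left out, in the one without WT library 3 only (0.35, adjusted p = 0.23), and the log2 fold change was 0.18 to 0.35 over these fits. *Slc25a1*, the citrate carrier of the inner membrane, had 80.8, 46.1 and 39.0 in WT and 303, 72.6 and 98.5 in mKD, giving a log2 fold change of 1.28 (95% interval 0.05 to 2.52, limma adjusted p = 0.26). The value of mKD library 1, which also held the most adipocyte and nerve marker counts, was the highest, and without it the log2 fold change was 0.67 (adjusted p = 0.50). It also did not pass without WT library 2 (1.19, adjusted p = 0.42), WT library 3 (1.07, adjusted p = 0.38) or mKD library 3 (1.48, adjusted p = 0.33).

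*Pdk4*, the inhibitory kinase induced by fasting, is not among the members and did not pass. It had counts of 10395, 16946 and 49476 in WT and 25029.8, 21409 and 32151 in mKD. Its WT libraries alone spanned more than all mKD libraries, and the log2 fold change was 0.33 (95% interval -0.83 to 1.49, limma adjusted p = 0.76). Exons of 5 members (*Mpc1*, *Pdha1*, *Idh3b*, *Mdh1* and *Got2*) overlap a gene on the opposite strand. Among the other pathway genes named here, those of *Sdhaf1*, *Sdhaf2*, *Sdhaf4*, *Lias*, *Lipt1*, *Pdpr* and *Me3* do as well. The kit keeps the strand, but whether the counting used it is not given in the sources used here.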

How the data were processed

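Poly(A) RNA of GAS muscle was sequenced from 3 WT and 3 mKD mice, described by the study as biological replicates. The values deposited by the authors are a normalised signal: the reads of a gene divided by 1 size factor for the library. Partek Flow 9.0.20.0622 and DESeq2 are named for the study, GRCm38 (mm10) is in the submitters' processing notes, and for aligner and counter the sources used here give no name. Whole reads were recovered for 100% of values (within 1e-04). The authors' own fold changes, p-values and test statistics, also in the table, were not used.

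limma 3.58.1 with a trend (R 4.3.3) was fitted on log2(value + 1) with genotype alone in the model. P-values were adjusted by Benjamini-Hochberg across 12322 genes kept by edgeR's filterByExpr on recovered reads. It was tested on simulated data. edgeR 4.0.16 and DESeq2 1.42.0 on recovered reads, other scalings, filters and pseudocounts (0.5 and 4), removal of each library's trend over transcript length (lowess, span 0.3), a replicate block and leaving out libraries were alternatives. Transcript lengths and gene coordinates come from GENCODE M21 on GRCm38. Every member is named, with values in every library where it passed, its genotypes did not overlap, it had the smallest p of its role or it belongs to complex II, and for some others picked after their values were seen; of the other pathway genes, those that passed are named, and a few that did not were picked after their values were seen. The members, gene lists and tests were chosen with earlier results of these data known, so no list received a test of its own. Values of 1 other pathway gene are not reported here.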

Additional observations from a re-analysis of the deposited data

How the results depend on the processing

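Across 18 alternative settings, 546 of 611 log2 fold changes of members kept their direction and side of the rule, or moved within the spread between replicates, 18 no longer passed, 11 passed newly, 36 moved by more than the spread between replicates and 0 changed sign as called values. The 2196 genes that passed became 1294 with the length trend removed and 1193 without mKD libraries 1 and 3, and ranged from 1467 to 2304 with 1 library left out. At an adjusted p under 0.05, DESeq2 called 535 genes, the length-corrected fit 0 (1294 at 1.2-fold with p under 0.05), and the fit without mKD libraries 1 and 3 called 4, with 0 to 4 when 1 library was left out. With the median transcript as the length (chosen after seeing the data), 1 member (2.94%) passed, beside 14.7% of all genes. Leaving out 1 library gave 1 to 5 members that passed, where 11.9% to 18.7% of all genes did. Of the other pathway genes 4 passed with the length trend removed, where 10.5% of all genes did. With 1 library left out 4 to 7 of them passed, beside the same 11.9% to 18.7% of all genes. The median of the members was -0.015 with the length trend removed and 0.0051 to 0.17 with 1 library left out. Non-overlapping members numbered 6 to 12 with 1 library left out, where 31.8% to 39.0% of all genes did not overlap, and 22 without mKD libraries 1 and 3, where 58.6% of all genes did not overlap. Correlations of the libraries' deviations from their genotype means were 0.06, -0.05 and -0.08 for same-numbered libraries. For the other pairs of a WT and an mKD library they were -0.07 to 0.12. Whether the numbers pair the mice cannot be decided this way, because each deviation is taken from a mean of only 3 libraries. With the replicate number as a block, 1742 genes (14.1%) and 2 members (5.88%, *Pdk1* and *Pcx*) passed. In that fit 4 other pathway genes passed, and 0 genes had an adjusted p under 0.05. The cause of these shifts was not tested. With 3 mice per genotype, the median standard error of a member was 0.13 on the log2 scale, and *Pdk3*, at 0 to 17.7 normalised counts, was limited by depth.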
